A study of Mus musculus with 12 samples.

Results

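The mRNAs of 10 AP-1 transcription factors were followed in activated mouse B cells: Fos, Fosb, Fosl1, Fosl2, Jun, Junb, Jund, Atf3, Batf and Maff. They were chosen by gene symbol with earlier results of these data known, and each of the 10 symbols named a single row among the 29486 genes of the normalized count table. AP-1 is a family of dimers built from basic leucine zipper (bZIP) proteins. A Jun protein pairs with itself, with a Fos protein or with an ATF or BATF protein. The pair chosen decides which DNA sites are bound and whether transcription is raised or held down. Fos, Fosb, Jun and Junb are known as immediate early genes, transcribed within minutes of mitogens or stress through MAP kinases, while in B lymphocytes Batf works with Irf4 and Irf8 and is needed for class switch recombination.

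All cells were splenic B cells of C57BL/6Babr mice, cultured as primary cells and activated with the bacterial mitogen lipopolysaccharide (LPS, 10 µg/ml). The LPS group (n = 4 libraries) received LPS alone for 48 h. The LPS + etoposide group (n = 4) received LPS for 48 h and then etoposide, a topoisomerase II poison that breaks DNA, at 20 µM for 4 h. The LPS + KU55933 + etoposide group (n = 4) received KU55933, an inhibitor of the DNA damage kinase ATM, at 10 µM for 1 h after 47 h of LPS, and then the same etoposide treatment. The labels do not state whether cells with LPS alone were kept for the further 4 h, and no group received KU55933 without etoposide. The libraries of each group carried sequencing indexes that no other group carried, so index and treatment cannot be told apart.

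Each library has a deposited value for each gene, but the 4 columns of a group were proportional to each other for every gene, to within 2.68e-14 on the log2 scale. The values are thus 1 fitted level per group multiplied by 1 factor per library, with no replicate spread left in them. No test between groups could be made from these fitted values, and the authors' own test results were not used. Differences are given as sizes. A value was divided by its library factor (the scaled value). The log2 difference of scaled values was taken after adding 1, with a call at 2-fold on that scale. The 95% limits in parentheses cover counting error only, for the ratio without the added 1, and are a lower limit to the true error. In units of 1000000 fitted counts, the 4 libraries with LPS alone totalled 20.7 to 23.9, those with etoposide 22.5 to 30.6, and those with both compounds 20.4 to 25.1. A gene was kept at a scaled value of 10 or more in all 4 libraries of a group, which left 15614 genes, and the 10 AP-1 genes passed in every group.

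The B cell label was checked against 8 B cell markers. Cd79a, a signalling chain of the B cell receptor, had scaled values of 21780.5, 15883 and 16344 in LPS, LPS + etoposide and LPS + KU55933 + etoposide. The summed value of the 8 markers was 142092, 78993 and 87584 in the same order, and 3 of them (Pax5, Cd22 and Ebf1) were lower by 2-fold or more with etoposide than with LPS alone. The T cell receptor genes Cd3d, Cd3e and Cd3g stayed at 3.57 or less in every group, and Trac, the constant gene of the T cell receptor alpha chain, stood at 2.83, 13.9 and 5.45. The 8 T cell markers summed to 431, 329 and 292, nearly all of it Lck. The 8 macrophage markers summed to 415, 487 and 446, with Cd68 at 102, 215 and 177, Cd14 at 5.05, 24.6 and 40.9, Itgam at 215, 131 and 116, and Adgre1 at 47.8, 45.9 and 39.8. The 4 natural killer cell markers found, of 5, summed to 22.7, 29.3 and 24.7, the 5 dendritic cell markers to 2875, 1934 and 3423, mostly Flt3, and the 6 red cell markers to 213, 189 and 117. The 4 plasma cell markers summed to 11394, 12593 and 8846, with Sdc1 (CD138) at 135, 1984 and 641, Xbp1 at 7430.1, 5400.2 and 5479, and Jchain at 3827, 5206 and 2724. No marker was at 0 in any group, since the fitted values hold no zeros. The part of these markers in the AP-1 values was not tested, and in bulk RNA a change in the number of cells of a type cannot be told apart from a change in RNA per cell.

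The DNA just upstream of the AP-1 genes is shown first, because AP-1 and CREB/ATF proteins are themselves known to bind there. RefSeq starts on GRCm38.p6 were matched for 9 of the 10 genes, with 3 alternative starts for Maff, and Fosl1 was not matched. The 250 bases before each start were searched on both strands for TGANTCA (the AP-1 site), TGACGT (the core of the cAMP response element, bound by CREB and ATF proteins) and TGACATCA (the variant known from the Jun promoter). Matches were found before 5 of the 9 genes, namely Fos, Jun, Atf3, Batf and Maff, and every match was to TGACGT or TGACATCA. The AP-1 site TGANTCA was found before none of the 9 genes. For each gene with a match, 1 stretch that holds it is printed 5′ to 3′ with the matches in capitals.
Fos, chr12:85473640-85473889, plus strand: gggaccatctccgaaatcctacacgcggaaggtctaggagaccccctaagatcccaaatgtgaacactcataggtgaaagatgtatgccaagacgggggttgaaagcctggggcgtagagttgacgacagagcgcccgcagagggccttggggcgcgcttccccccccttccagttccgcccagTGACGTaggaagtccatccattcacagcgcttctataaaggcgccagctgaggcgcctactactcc
Jun, chr4:95052223-95052472, minus strand: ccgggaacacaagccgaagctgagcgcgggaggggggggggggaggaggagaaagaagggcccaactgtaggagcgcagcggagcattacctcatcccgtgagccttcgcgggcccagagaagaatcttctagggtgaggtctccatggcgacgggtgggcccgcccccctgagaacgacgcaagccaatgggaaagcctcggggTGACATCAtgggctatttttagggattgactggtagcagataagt
Atf3, chr1:191183334-191183583, minus strand: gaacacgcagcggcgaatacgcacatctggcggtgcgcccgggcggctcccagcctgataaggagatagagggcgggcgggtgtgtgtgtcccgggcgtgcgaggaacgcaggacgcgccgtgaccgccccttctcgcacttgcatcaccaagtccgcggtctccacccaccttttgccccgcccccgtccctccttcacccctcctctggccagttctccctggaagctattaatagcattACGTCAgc
Batf, chr12:85686470-85686719, plus strand: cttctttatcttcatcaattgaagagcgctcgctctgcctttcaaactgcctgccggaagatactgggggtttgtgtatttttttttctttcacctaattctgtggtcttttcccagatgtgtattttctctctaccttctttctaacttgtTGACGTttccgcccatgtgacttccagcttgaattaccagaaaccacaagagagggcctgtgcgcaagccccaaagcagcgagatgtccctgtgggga
Maff, chr15:79347270-79347519, plus strand: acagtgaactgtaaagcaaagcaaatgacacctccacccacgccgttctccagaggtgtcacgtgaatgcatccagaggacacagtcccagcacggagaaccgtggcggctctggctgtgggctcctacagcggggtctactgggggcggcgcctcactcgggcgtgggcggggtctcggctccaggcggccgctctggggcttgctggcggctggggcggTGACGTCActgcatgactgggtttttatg
In Fos the TGACGT match began 66 bases before the start, in Atf3 its reverse complement began 8 bases before the start, and in Batf it began 98 bases before the start. The middle Maff start had TGACGT on both strands, in matches beginning 29 and 27 bases before the start and overlapping each other, and the Maff start downstream of it had TGACATCA at 45 bases, the same distance as in Jun. No stretch held matches to more than 1 of the 3 motifs. Of 32851 mouse promoter stretches of the same length, 6.75% held TGANTCA, 6.47% TGACGT, 2.93% TGACATCA and 15.5% at least 1 of them. The 3 motifs were chosen after the sequences of the AP-1 genes were read, so no excess over these shares can be claimed. The shares are also per stretch, whereas the 5 of 9 counts genes, and Maff had 3 stretches. The stretches before Fosb, Fosl2, Junb and Jund held none of these letters. RefSeq starts differ from the outer ends of the GENCODE M21 genes: those of Jund and Junb lie upstream of the gene, and those of Atf3, Batf, Fosb, Fosl2 and 2 of the 3 for Maff lie inside it. A match is a description of letters and not of binding.

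**Figure D1:**
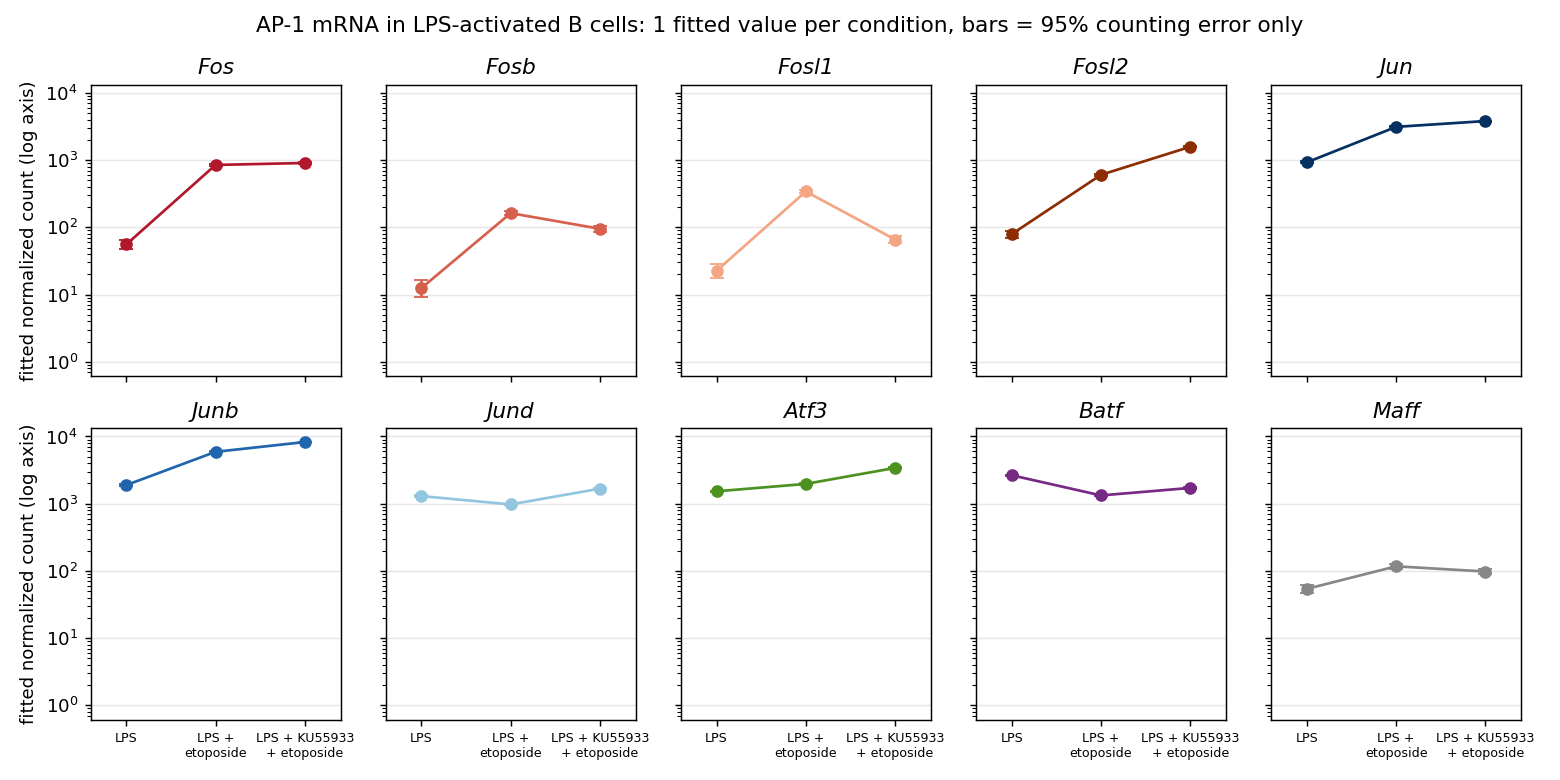
Scaled value of each AP-1 mRNA (y axis, fitted normalized count on a log axis) in the 3 groups (x axis), 1 panel per gene. Points are the fitted level of the group over 4 libraries and bars are 95% counting limits. The 4 Fos genes and Maff start lowest with LPS, between 12.5 and 79.2, and Junb reaches the highest value, 8259, with KU55933 and etoposide.

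With etoposide, 7 of the 10 AP-1 mRNAs were higher by 2-fold or more than with LPS alone, against 15.1% of the 15614 genes kept. They were the 4 Fos genes, Jun, Junb and Maff. None was lower by 2-fold or more, against 5.17% of genes, and Jund, Atf3 and Batf stayed inside 2-fold. The median log2 difference of the 10 was 1.70, and that of all genes kept was 0.04. Some of the genes counted in the 15.1% were under the minimum in another group. Among the 13952 genes at 10 or more in every group, as all 10 AP-1 genes were, the shares higher and lower by 2-fold were 10.4% and 5.23%.

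Fos, the founding member and a partner of Jun that cannot pair with itself, lies on chromosome 12 (GRCm38, 85473890 to 85477273, plus strand, ENSMUSG00000021250). Its deposited values were 46.6, 51.7, 53.8 and 48.4 in the 4 LPS libraries. They were 811, 909, 1101 and 882 with etoposide, and 816, 920, 986 and 1002 with KU55933 and etoposide. As for every gene, the spread inside a group is that of the library factors alone, so overlap or separation of the columns is no evidence between groups. The fitted level was lowest with LPS and close together in the groups with etoposide. The scaled value went from 55.6 to 848, a log2 difference of 3.91 (3.73 to 4.14), and 137 of the 15614 genes had a larger one. With KU55933 it was 907, a log2 difference of 0.10 (0.03 to 0.16) from etoposide alone, which 5354 genes exceeded.

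Fosl1, which encodes Fra-1, a Fos protein without the strong activation domain of Fos, lies on chromosome 19 (5447547 to 5455946, plus strand, ENSMUSG00000024912). Its deposited values were 18.9, 21.0, 21.8 and 19.7 with LPS. They were 327, 367, 444 and 356 with etoposide, and 59.2, 66.8, 71.6 and 72.7 with KU55933 and etoposide. The fitted level with KU55933 lay between the others. The scaled values of 22.6, 342 and 65.8 gave a log2 difference of 3.86 (3.60 to 4.26) for etoposide against LPS. Fosl1 was lower with KU55933 than with etoposide alone, with a log2 difference of -2.36 (-2.57 to -2.19) or 5.13-fold, and 44 of the 15614 genes were lower by more. An exon of Fosl1 overlaps Ccdc85b on the opposite strand, and the strand setting of the read counting was not given in the sources used here.

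Fosl2, which encodes the related Fra-2, lies on chromosome 5 (32135801 to 32157842, plus strand, ENSMUSG00000029135). Its deposited values were 66.4, 73.6, 76.6 and 69.0 with LPS. They were 578, 648, 785 and 628 with etoposide, and 1422, 1603, 1718 and 1746 with KU55933 and etoposide. Here the fitted level with KU55933 stood above both others. The scaled value was 79.2 with LPS, 604 with etoposide (log2 difference 2.92, 2.76 to 3.11) and 1579 with KU55933 and etoposide. The last was higher than etoposide alone by 1.38 on the log2 scale (1.32 to 1.45), a difference that 88 genes exceeded, and higher than LPS by 4.30 (4.15 to 4.49), which 20 genes exceeded.

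Fosb, known in a full-length and a truncated splice form that a count per gene does not separate, lies on chromosome 7 (19302696 to 19310051, minus strand, ENSMUSG00000003545). It was the lowest AP-1 mRNA in scaled value with LPS, where its deposited values ran from 10.5 to 12.1. They ran from 156 to 211 with etoposide and from 85.6 to 105 with KU55933 and etoposide. The log2 difference was 3.60 (3.27 to 4.17) for etoposide against LPS and -0.77 (-0.96 to -0.59) for KU55933 plus etoposide against etoposide. With a fitted total of only 45.1 counts over the 4 LPS libraries, the counting limits of Fosb were the widest of the 10 in the comparisons with LPS.

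Among the Jun genes, Jun and Junb were higher with etoposide and Jund was not. Jun, the strongest activator of the family, lies on chromosome 4 (95049034 to 95052222, minus strand, ENSMUSG00000052684), and its deposited values ran from 777 to 897 with LPS, from 2990 to 4059 with etoposide and from 3432 to 4214 with KU55933 and etoposide. The fitted level was lowest with LPS. Its log2 difference was 1.75 (1.70 to 1.81) for etoposide against LPS and 0.29 (0.25 to 0.32) for KU55933 plus etoposide against etoposide.

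Junb, a weaker activator that can oppose Jun, lies on chromosome 8 (84974484 to 84978718, minus strand, ENSMUSG00000052837). Its deposited values were 1583, 1756, 1827 and 1646 with LPS. They were 5650, 6333, 7670 and 6139 with etoposide, and 7435, 8384, 8982 and 9130 with KU55933 and etoposide. The fitted level was lowest with LPS and highest with KU55933 and etoposide. The log2 difference was 1.64 (1.61 to 1.68) for etoposide against LPS and 0.48 (0.46 to 0.51) for KU55933 plus etoposide against etoposide.

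Jund, the member usually present in resting cells, lies on the same chromosome (70698949 to 70700616, plus strand, ENSMUSG00000071076) and had scaled values of 1296, 974 and 1672. It was lower with etoposide (log2 difference -0.41, -0.47 to -0.35) and higher with KU55933 than with etoposide alone by 0.78 (0.72 to 0.83). The deposited values ran from 1086 to 1253 with LPS, from 932 to 1266 with etoposide and from 1505 to 1848 with both compounds. Exons of Jun, Junb and Jund overlap Junos, Prdx2 and Gm11175 on the opposite strand.

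Atf3, a stress-response bZIP protein that represses as a dimer with itself and is also a known target of ATF4, lies on chromosome 1 (191170296 to 191218039, minus strand, ENSMUSG00000026628). Its deposited values were 1280, 1420, 1477 and 1331 with LPS. They were 1883, 2111, 2557 and 2046 with etoposide, and 3066, 3457, 3704 and 3765 with KU55933 and etoposide. The fitted level was highest with KU55933 and etoposide. The log2 difference was 0.37 (0.32 to 0.41) for etoposide against LPS and 0.79 (0.75 to 0.83) for KU55933 plus etoposide against etoposide, so Atf3 passed 2-fold only for KU55933 plus etoposide against LPS, at 1.16.

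Batf lies on chromosome 12 (85686669 to 85709087, plus strand, ENSMUSG00000034266) and was the AP-1 mRNA with the highest scaled value with LPS. Its deposited values were 2217, 2460, 2559 and 2306 with LPS. They were 1269, 1422, 1723 and 1379 with etoposide, and 1544, 1741, 1865 and 1896 with KU55933 and etoposide. The fitted level was highest with LPS. Batf was lower with etoposide, with a log2 difference of -0.996 (-1.04 to -0.95), a 1.99-fold difference just inside the 2-fold call, and 820 genes were lower by more. It was higher with KU55933 than with etoposide alone by 0.37 (0.32 to 0.42), and still lower than with LPS (-0.63, -0.67 to -0.58). Under TMM library factors, the etoposide difference was -1.11 and passed 2-fold.

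Maff, a small MAF protein without an activation domain, lies on chromosome 15 (79346621 to 79359076, plus strand, ENSMUSG00000042622) and had scaled values of 54.0, 117 and 97.9. Its log2 difference was 1.10 (0.87 to 1.36) for etoposide against LPS and -0.26 (-0.45 to -0.07) for KU55933 plus etoposide against etoposide. The counting limits of the first reach below 2-fold, and Maff was no longer past 2-fold under TMM factors or quantile normalization.

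**Figure D2:**
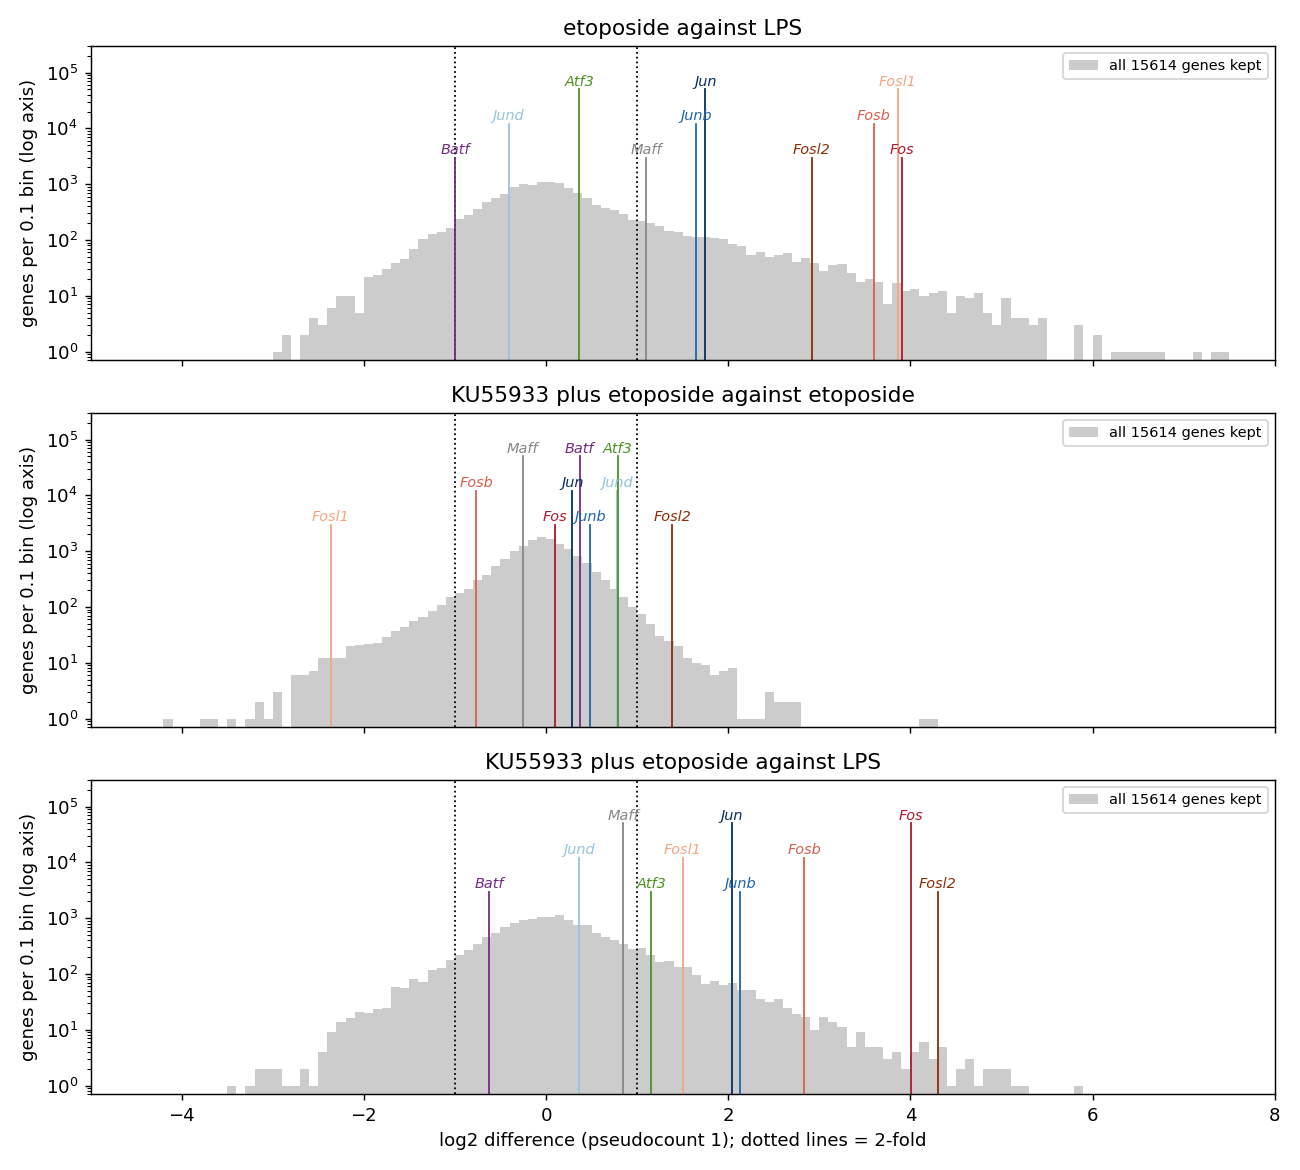
Log2 difference of scaled values (x axis) in the 3 comparisons, with all 15614 genes kept as grey bars (y axis, genes per bin on a log axis) and each AP-1 gene as a coloured line whose height only makes room for its name. Dotted lines mark 2-fold. In the upper panel 7 AP-1 genes lie to the right of 2-fold, and in the middle panel Fosl1 and Fosl2 are the members outside it, at -2.36 and 1.38.

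KU55933 before etoposide left most AP-1 mRNAs within 2-fold of etoposide alone, and the 2 outside it lay on opposite sides. Fosl2 was higher, 1 of 10 against 1.71% of genes, and Fosl1 was lower, 1 of 10 against 4.69% of genes. Among genes at 10 or more in every group the shares were 1.56% and 2.39%. Of the 8 inside 2-fold, Fos, Jun, Junb, Jund, Atf3 and Batf had higher values with KU55933 and Fosb and Maff had lower values. The median over the 10 was 0.33, and over all genes kept it was -0.05. Against LPS alone, the cells with KU55933 and etoposide had 7 AP-1 mRNAs higher by 2-fold or more, where 11.9% of genes were, and none lower, where 5.36% were. Among genes at 10 or more in every group these shares were 8.29% and 5.32%. The 7 were Fos, Fosb, Fosl1, Fosl2, Jun, Junb and Atf3, with log2 differences from 1.16 for Atf3 to 4.30 for Fosl2, and the median was 1.77 for the 10 and 0.07 for all genes. Maff (0.85), Jund (0.37) and Batf (-0.63) stayed inside 2-fold. The 3 comparisons share groups, so they are not independent of each other.

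To compare levels between genes, scaled values were divided by the exonic length and expressed per 1000000 of the sum over all genes. The length joins all annotated exons of a gene, 9680 bases for Fosl2, 6243 for Fosb and 1406 for Batf. Where the transcript present is shorter than this, the level is understated. On this scale the 10 mRNAs together made up 561 of every 1000000 with LPS, 821 with etoposide and 1176 with both compounds. Batf held 41.4% of the LPS total and ranked first, followed by Junb (18.1%), Jund (17.1%), Atf3 (15.6%) and Jun (6.40%). With etoposide Junb ranked first with 38.6%, and Jun (14.7%), Batf (14.2%) and Atf3 (13.7%) followed so closely that the counting limits of neighbours overlapped. With KU55933 and etoposide Junb again held the largest share (38.9%), now followed by Atf3 (17.1%), Batf (13.2%), Jun (13.0%) and Jund (10.9%). Counting limits of other neighbours overlapped for Fos with Maff and Fosl1 with Fosl2 under LPS, and for Batf with Jun and Maff with Fosl1 under KU55933 and etoposide.

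The 4 Fos genes were a small part of the pool in every group. Their share was 0.99% under LPS alone, 9.28% once etoposide was added and 6.47% when KU55933 came first, against 41.6%, 62.1% and 62.8% for the 3 Jun genes. The summed Jun level was therefore 42.1 times the summed Fos level with LPS, 6.69 times with etoposide and 9.71 times with KU55933 and etoposide. The summed Fos level hardly differed between the last 2 groups, at 76.2 and 76.1 per 1000000, but its make-up did. Fosl1 was 27.2% of the Fos family with etoposide and 5.43% with KU55933, while Fosl2 was 10.1% and 27.4%, and Fos itself was 58.4% and 64.7%. Within the Jun family, Junb was 43.5% with LPS and 62.1% with etoposide, and Jund was 41.1% and 14.1%. These shares and ratios rest on fitted values and on the lengths used, and carry no replicate error.

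**Figure D3:**
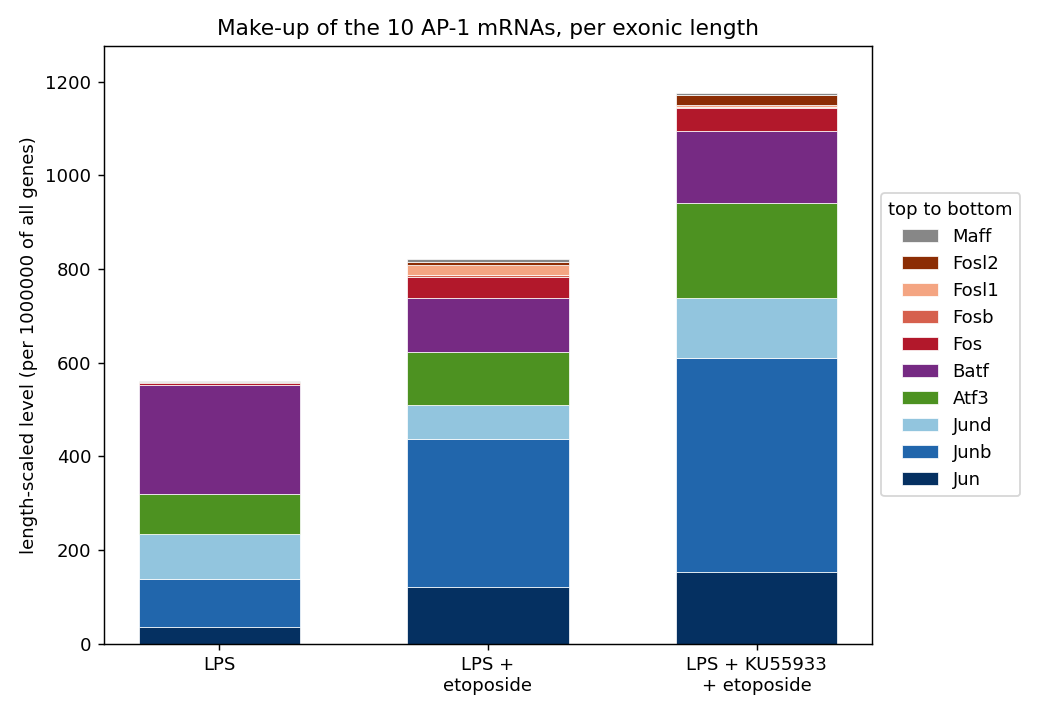
Length-scaled level of the 10 AP-1 mRNAs (y axis, per 1000000 of all genes) stacked for each of the 3 groups (x axis). The bars total 561, 821 and 1176, Batf (purple) is the largest segment with LPS, and Junb (mid blue) is the largest with etoposide, with or without KU55933.

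Other genes of the pathway were described from 6 lists. Of 26 other bZIP genes that can join or compete with AP-1, 22 passed the minimum. With etoposide, 2 were higher by 2-fold or more and 2 were lower, against 15.1% and 5.17% of all genes kept. Cebpb, a C/EBP factor of inflammatory genes, went from 46.1 to 158 (log2 difference 1.76), and Crem, which encodes CREM and the cAMP-induced repressor ICER, from 749 to 2461 (1.71). Bach2, a bZIP repressor that restrains plasma cell differentiation, went from 4768 to 1241 (-1.94), and Atf6, a sensor of endoplasmic reticulum stress, from 9233 to 4036 (-1.19). With KU55933 against etoposide alone 5 were higher by 2-fold or more and none was lower, against 1.71% and 4.69% of all genes kept. Atf5 went from 456 to 1815 (1.99) and Crem from 2461 to 5866 (1.25), and Ddit3 (1.15), Nfil3 (1.12) and Jdp2 (1.06), named after their values were seen, were the others. The list median was 0.33 in this comparison, as in the AP-1 genes themselves, and -0.05 over all genes. Against LPS, 5 were higher and 2 were lower in cells with KU55933 and etoposide, against 11.9% and 5.36% of all genes kept. They were led by Crem (2.97) and Cebpb (1.84) above and Bach2 (-2.03) and Atf6 (-1.34) below.

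The MAP kinase cascade switches on Fos and Jun through its JNK, ERK and p38 branches. Of 30 genes 28 passed. With etoposide 1 was higher by 2-fold or more and 2 were lower, against 15.1% and 5.17% of all genes kept. Map2k3, a kinase upstream of p38, was higher by 1.16 on the log2 scale, and Mapk11 (p38 beta) and Map3k5 (ASK1) were lower, at -1.60 and -1.48. None passed 2-fold between KU55933 plus etoposide and etoposide, where the largest difference was that of Mapk11 (0.88). Over all genes kept, 1.71% were higher and 4.69% lower there. Against LPS, Map3k5 (-1.40) and Map2k6 (-1.29) were lower by 2-fold or more in cells with KU55933 and etoposide. These 2 were the only ones lower and none was higher, against 5.36% and 11.9% of all genes kept. The list median was -0.35 for etoposide against LPS, below the 0.04 of all genes.

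Of 12 transcription factors that act on Fos and Jun promoters all passed, and none was higher by 2-fold or more in any comparison. Over all genes kept, 15.1% were higher and 5.17% lower with etoposide. For KU55933 plus etoposide these shares were 1.71% and 4.69% against etoposide, and 11.9% and 5.36% against LPS. With etoposide Mef2c, a factor that recruits MAP kinase signals to the Jun promoter, was lower, with a log2 difference of -2.06, and so was the ternary complex factor Elk3, at -1.55. With KU55933 and etoposide against LPS, Mef2c (-2.34), Elk3 (-1.36) and Mef2a (-1.15, named after its value was seen) were lower. Between KU55933 plus etoposide and etoposide none passed 2-fold, the largest difference being -0.57 for Sp1. The list median was -0.28 for etoposide against LPS.

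Among 24 textbook AP-1 target genes, 18 passed the minimum. With etoposide 6 were higher by 2-fold or more and 1 was lower, against 15.1% and 5.17% of all genes kept, and of those higher Gja1 and Timp1 were under the minimum with LPS. Gja1, which encodes connexin 43, went from 3.21 to 71.7 (4.11, with counting limits of 3.64 to 5.47), and Plau, the urokinase gene, from 14.7 to 150 (3.26). Tnf was lower, at -1.08. With KU55933 Plau (-2.29), Gja1 (-1.03) and Timp1 (-1.27, named after its value was seen) were lower than with etoposide alone, while Il6 (1.25) was higher. Over all genes kept, 4.69% were lower and 1.71% higher. Against LPS 6 were higher and 1 was lower, where 11.9% and 5.36% of all genes kept were. Dusp1, a MAP kinase phosphatase (1.62), Hmox1, heme oxygenase (1.24), and Tnf (-1.45) were named by the rule. It asks for a scaled value of 50 in at least 1 of the groups. The list median was 0.48 for etoposide against LPS, -0.36 for KU55933 plus etoposide against etoposide and 0.69 for KU55933 plus etoposide against LPS.

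The 8 partners and targets of Batf in B cells all passed. With etoposide 4 were lower by 2-fold or more and none was higher, against 5.17% and 15.1% of all genes kept. Ikzf1, which encodes the lymphoid zinc finger factor Ikaros, went from 18717 to 3816 (-2.29). Irf8, a partner of Batf on DNA, went from 13308 to 3508 (-1.92), whereas the partner Irf4 went from 10720 to 11942 (0.16). Irf8 and Irf4 were named for this comparison after their values were seen. Between KU55933 plus etoposide and etoposide 1 of the 8 was higher by 2-fold or more and none was lower. The shares of all genes kept were 1.71% and 4.69%. Ikzf1 (0.03) and Irf8 (0.10) stood near 0, while Irf4 was lower, at -0.97, inside 2-fold. Against LPS 3 were lower in cells with KU55933 and etoposide, led by Ikzf1 (-2.27) and Irf8 (-1.82), against 5.36% of all genes kept. The list median was -1.01 for etoposide against LPS. B cell markers moved with this list, since Pax5, Cd22 and Ebf1 were also lower, at -2.25, -2.44 and -2.20, in the same comparison, and their part in it was not tested.

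Of 9 regulators of AP-1 protein activity and turnover, all of which passed, none was outside 2-fold with etoposide or between KU55933 plus etoposide and LPS. Of all genes kept, 15.1% were higher and 5.17% lower in the first, and 11.9% and 5.36% in the second. The largest differences were -0.55 for Jdp2, a bZIP repressor that pairs with Jun and also stands in the bZIP list, and -0.71 for Fbxw7, a ubiquitin ligase subunit that targets Jun. Jdp2 was the 1 gene past 2-fold between KU55933 plus etoposide and etoposide, from 52.1 to 110 (1.06). There 1.71% of all genes kept were higher and 4.69% lower.

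**Figure D4:**
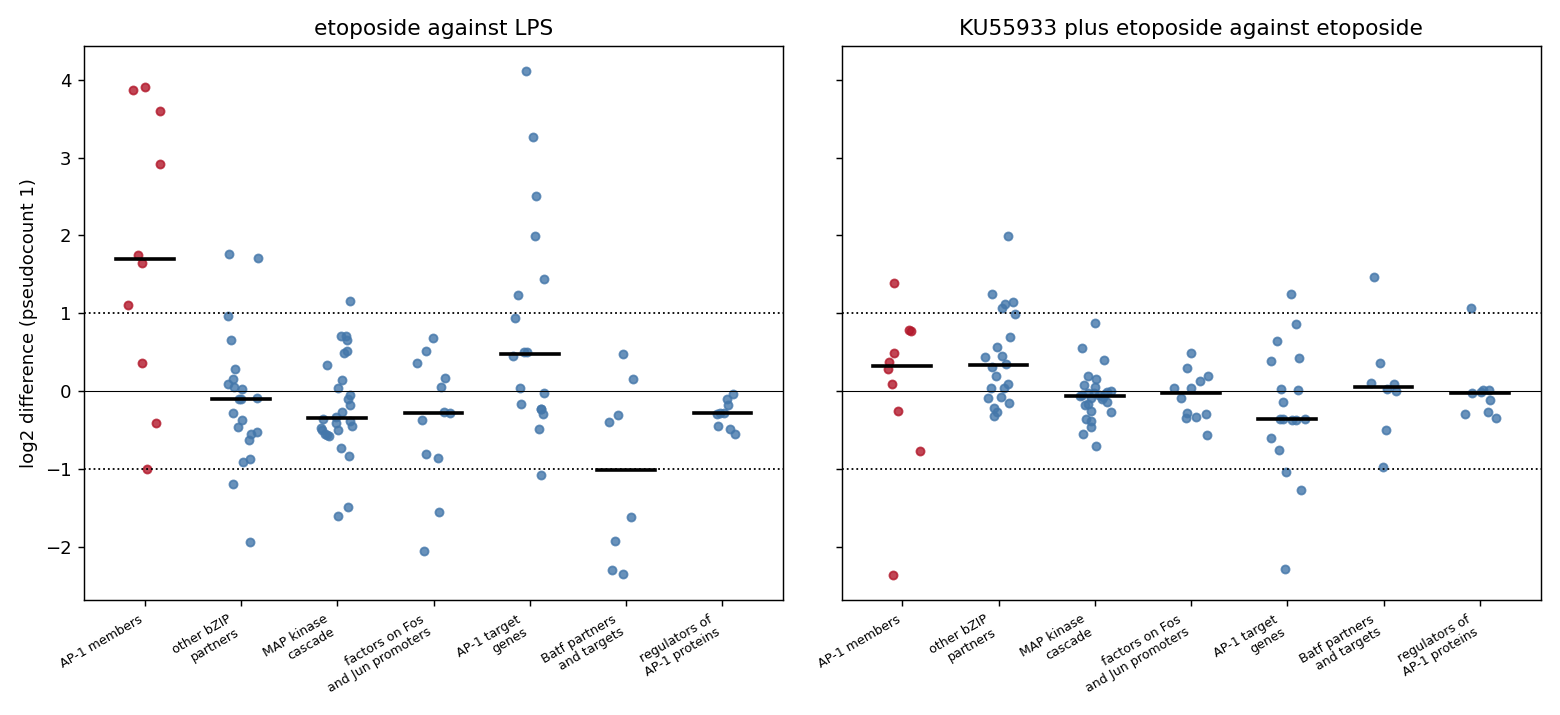
Log2 difference (y axis) of the 10 AP-1 genes (red) and of the genes of the 6 lists that passed the minimum (blue) for etoposide against LPS (left) and KU55933 plus etoposide against etoposide (right). Each point is a gene, black bars are medians and dotted lines mark 2-fold. The left medians are 1.70 for the AP-1 genes and -1.01 for the partners and targets of Batf.

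The genes whose levels over the 3 groups were most like each AP-1 gene were found by the Euclidean distance in the first 2 log2 differences among 11298 genes at 50 or more in every group. With only 3 groups, many genes share a pattern. Fos was closest to Rasd1 (distance 0.55), which had scaled values of 65.9, 685 and 769. Fosl1 was closest to Bmp1 (0.53), at 51.3, 992 and 249, and Fosl2 to Cish (0.37), at 61.8, 406 and 1308. Fosb was closest to Hic1 (0.20), Jun to C920025E04Rik (0.07), Junb to Zfp963 (0.21) with Jun second (0.22), and Jund to Gm12840 (0.03). Atf3 was closest to Zmat1 (0.02), Batf to 2010110K18Rik (0.01) and Maff to Plekho2 (0.01). The Fos genes other than Fosb had no neighbour within 0.37, whereas Jund, Atf3, Batf and Maff each had 3 within 0.07. Genes under 50 with LPS were not compared, and Fosb (12.5) and Fosl1 (22.6) were themselves under it. Genes raised from a lower LPS level were thus left out, so these distances do not show how rare a pattern is.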

How the data were processed

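Total mRNA was sequenced (HiSeq2000, TruSeq) in 12 libraries. The authors trimmed reads with Trim Galore and cutadapt 1.2.1, mapped them with TopHat2 2.0.12 to GRCm38, counted Ensembl genes with HTSeq and fitted DESeq2 1.6.3. The deposited table of the authors holds a signal, the fitted normalized count, which the DESeq2 default moderates toward equal groups (whether it was changed is not given in the sources used here). The 3 deposited comparison tables hold mean counts, log2 fold changes, standard errors, test scores and p-values of the authors and were not used. The planned limma test needs replicate spread and could not be run.

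Columns were divided by median-of-ratios factors over 13712 genes. Genes at 10 or more in all 4 libraries of a group were kept, 1 was added before log2, and 2-fold was the call. Counting limits (95%) are exact for the summed fitted counts, an approximation since fitted values are not counts, and cover counting error only. Lengths and positions are from GENCODE M21 on GRCm38 (lengths for 99.5% of genes kept), promoters from RefSeq. Scripts ran in Python 3.11.15 on numpy 2.4.6 and pandas 2.3.3, with exact limits from scipy 1.17.1 and plots from matplotlib 3.10.9, and functions were tested on simulated data. Replicates are numbered libraries of a group.

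The AP-1 genes, the 6 pathway lists and the 7 marker lists were chosen with earlier results of these data known, and the 3 promoter motifs after the sequences were read. Named genes were the 10 members, and from each list and comparison up to 2 highest and 2 lowest past 2-fold with a scaled value of 50 or more in a compared group, or else the 1 largest difference, and for each member the 3 likest genes, of which the text names the first. Results for some genes of the lists are not reported here. Alternatives were TMM factors, library totals, quantile normalization, pseudocounts of 0.5 and 5, no filter, a minimum of 50, a fold of 1.5 and leaving out each library.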

Additional observations from a re-analysis of the deposited data

How the results depend on the processing

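All 30 member differences (10 genes in 3 comparisons) kept their direction under the 7 settings tried beside the fold and the left-out libraries. Of these settings, only TMM factors, library totals and quantile normalization could have reversed a direction. A changed pseudocount cannot reverse one, and the changed filters left every member difference as it was. Of the 30 differences, 28 kept their side of 2-fold, which the changed filters could not alter. The 2 that did not were Maff and Batf in etoposide against LPS. Maff was 1.10 as reported, 0.99 with TMM factors and 0.70 with quantile normalization, which left 6 members higher by 2-fold. With TMM factors Batf was -1.11, so that 1 member was lower by 2-fold.

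For etoposide against LPS, 1358 genes were lower by 2-fold with quantile normalization (808 as reported), and 1459 were higher with a minimum of 50 (2356 as reported). With that minimum 424 were lower for KU55933 plus etoposide against etoposide (732 as reported) and 1193 were higher for KU55933 plus etoposide against LPS (1865 as reported), fewer genes being tested. With quantile normalization the share of calls that were higher was 56.0%, 39.5% and 54.3% in the 3 comparisons, where 74.5%, 26.7% and 69.0% were reported. At 1.5-fold, 3651 genes were higher and 2242 lower with etoposide, 1082 and 1863 with KU55933 plus etoposide against etoposide, and 3430 and 2222 with KU55933 plus etoposide against LPS. At that fold the members lower were 1 (Batf), 2 and 1 in the 3 comparisons, and 3 were higher with KU55933 plus etoposide against etoposide. The median log2 difference of all genes moved by -0.11 with TMM factors and -0.14 with quantile normalization for etoposide against LPS, and by 0.13 with library totals for KU55933 plus etoposide against LPS.

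Leaving out each of the 12 libraries moved no member difference by more than 0.01, which follows from fitted values and says nothing about replicates. No paired analysis was possible because the columns of a group are proportional and hold no deviation from the group level.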
